A study of Homo sapiens with 3 samples.

Results

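The 8 genes TCP1, CCT2, CCT3, CCT4, CCT5, CCT6A, CCT7 and CCT8 encode the subunits of the cytosolic chaperonin, a folding machine known as CCT or TRiC. They were taken by symbol from an expression table of 44591 genes, and all 8 were found in it. The table holds RNA-seq of Caki-1, a renal carcinoma cell line of human origin with epithelial traits. The cells received 10 nmol/L of an siRNA, and RNA was taken 48 h later. The si-Control library came from cells given a non-targeting siRNA, and the si-RBCK1 #1 and si-RBCK1 #2 libraries from cells given either of 2 siRNAs against RBCK1, which the labels call si-HOIL-1#1 and si-HOIL-1#2. RBCK1 (HOIL-1) is a subunit of the ligase complex that builds linear ubiquitin chains. The study asked what its depletion does to renal cancer cells. Each condition had 1 library, so no spread between replicates is known and no test was possible. The siRNAs differ in sequence and do not stand in for replicates, and both comparisons share the si-Control library.

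CCT is built of stacked rings in which every subunit gene has its own fixed place, and all of them are needed for a working complex. Newly made actin and tubulin reach their native fold inside its chamber, as do many proteins with WD40 repeats, and ATP drives the closing of the lid. Prefoldin hands clients over to it, and phosducin-like proteins act as cofactors. Subunits TCP1, CCT2, CCT4 and CCT5 form the side of the ring that binds ATP strongly, and CCT3, CCT6A, CCT7 and CCT8 form the side that binds it weakly.

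The siRNAs define the groups, so their sense strands are shown, with the letters that pair with the guide strand's seed (guide positions 2 to 8) in capitals.
si-RBCK1 #1: ggtgcaccttcATCAACAa
si-RBCK1 #2: ggattaccagcGATTTCTa
A search of 19669 protein-coding genes, using the longest GENCODE v29 transcript of each, found the whole 19-base sense strand of either siRNA in RBCK1 and in no other gene. The 7 letters of the seed match occurred in 22.3% of these transcripts for si-RBCK1 #1 and in 25.9% for si-RBCK1 #2. Among the CCT transcripts they occurred in CCT3 and CCT7 for si-RBCK1 #1 and in TCP1 for si-RBCK1 #2, in each case inside the longest open reading frame. The sites are shown with 11 bases on each side, since these 3 subunits carry letters that pair with a seed.
CCT3, transcript bases 747 to 753, si-RBCK1 #1: tgctgaacatcATCAACAgctctattact
CCT7, transcript bases 1674 to 1680, si-RBCK1 #1: atggagtagacATCAACAacgaggacatt
TCP1, transcript bases 777 to 783, si-RBCK1 #2: gaataaatggtGATTTCTttgctaacatg
Over the siRNA's length, the site in CCT3 had 12 of 19 bases in common with it, that in CCT7 had 10 and that in TCP1 had 12. A match of letters is a description and not a measured site. Their part in the levels below was not tested.

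The library totals behind the values lay between 36344428 and 40442939 reads, and each library had 12263 to 12473 genes at 1 RPKM or more (reads per kilobase of gene length, scaled for library total). RBCK1 stood at 33.3 RPKM in si-Control, 9.97 in si-RBCK1 #1 and 12.3 in si-RBCK1 #2, so the targeted gene was lower in both libraries labelled as knockdown. Of 6 markers of renal epithelial carcinoma cells, PAX8, KRT8, KRT18 and VIM were at 10 RPKM or more in every library, whereas KRT19 and CA12 stayed between 0.423 and 1.86 RPKM. Of 6 markers of blood, endothelial and stromal cells, PTPRC, CD3E, PECAM1 and CDH5 were under 0.1 RPKM in every library, COL1A1 lay between 3.21 and 4.68 RPKM, and CD68 between 41.8 and 52.3 RPKM. In bulk RNA, a change in the number of cells of a kind and a change in RNA per cell cannot be told apart.

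CCT subunit mRNA was higher in the cells given either siRNA against RBCK1, by unequal amounts from subunit to subunit. The summed level of the 8 subunits was 1023 RPKM in si-Control, 1540 RPKM in si-RBCK1 #1 and 1338 RPKM in si-RBCK1 #2, that is, 1.51-fold and 1.31-fold the si-Control level. The 8 subunits were 0.247%, 0.357% and 0.315% of all RPKM in these libraries. All 8 subunits were above their si-Control level in si-RBCK1 #1, where 51.5% of the 12403 genes that averaged 1 RPKM or more were above theirs. In si-RBCK1 #2 the count was 7 of 8, with CCT7 the exception, against 53.5% of those genes. On the scale of log2(RPKM + 1), which is used for every log2 ratio below unless reads are named, the median log2 ratio over the subunits was 0.54 (1.45-fold) in si-RBCK1 #1 and 0.40 (1.32-fold) in si-RBCK1 #2, whereas the median of all genes that passed was 0.02 and 0.03. A ratio at or above the subunits' median was seen for 14.1% of those genes in si-RBCK1 #1 and for 20.4% in si-RBCK1 #2. These are shares of single genes, and how often a set of 8 genes has such a median was not tested. The background was itself higher among the 1276 genes that averaged 50 RPKM or more, as all 8 subunits did. Their median log2 ratio was 0.17 in si-RBCK1 #1 and 0.11 in si-RBCK1 #2.

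Past a limit of 1.5-fold, the higher subunits in si-RBCK1 #1 were CCT3, CCT2, CCT6A and TCP1, 4 of 8, against a background of 12.1% of genes. In si-RBCK1 #2 they were CCT3 and CCT6A, 2 of 8, against 11.3%. These 2 were past the limit with both siRNAs, a state found for 7.47% of genes. TCP1 lay close to the limit and fell short of it when the libraries were scaled to equal total RPKM, which left 3 of 8 in si-RBCK1 #1. No subunit was 1.5-fold lower in either library, against 11.6% of genes in si-RBCK1 #1, 9.32% in si-RBCK1 #2 and 6.24% in both. The subunits are abundant mRNAs, and among the 1276 genes that averaged 50 RPKM or more the shares that were 1.5-fold higher were 14.2%, 10.8% and, with both siRNAs, 8.70%.

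**Figure D1:**
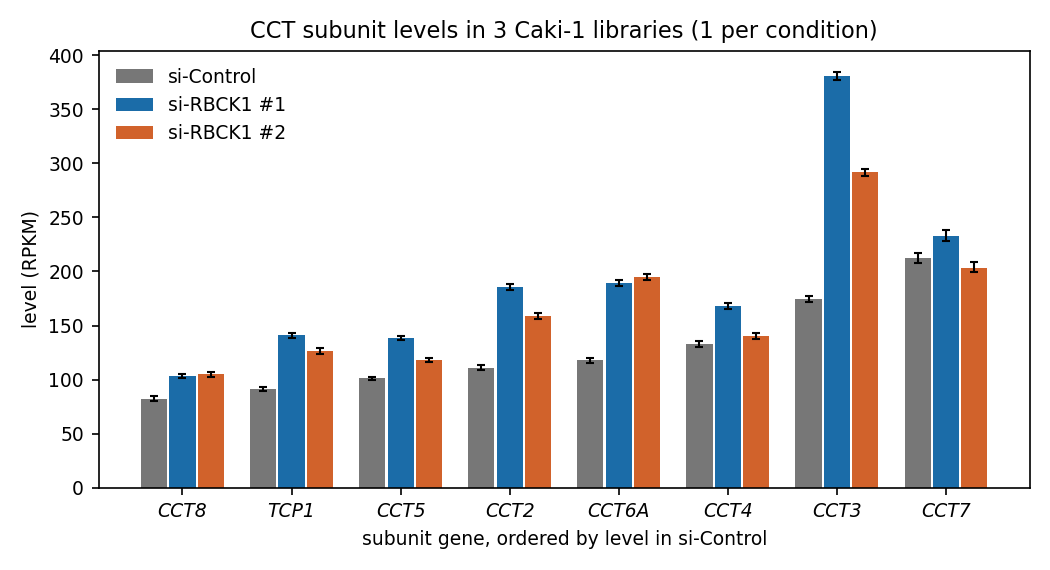
RPKM of each CCT subunit in the 3 libraries on an axis that starts at 0. Bars are single libraries and the error bars are exact 95% Poisson intervals on the reads. CCT7 was the highest subunit in si-Control, at 212 RPKM, and CCT3 the highest in both si-RBCK1 libraries, at 381 and 292 RPKM.

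CCT3, the gamma subunit (chr1:156278752-156308206, minus strand, hg19 as are all gene positions here), stood at 174 RPKM in si-Control, 381 RPKM in si-RBCK1 #1 and 292 RPKM in si-RBCK1 #2. It was the subunit that differed most in both libraries, with log2 ratios of 1.12 and 0.74. On 15336, 36691 and 25236 reads, the 95% counting intervals of the log2 ratio were 1.10 to 1.15 and 0.71 to 0.77. In si-RBCK1 #2 the interval of CCT6A, 0.69 to 0.76, overlapped that of CCT3, so the 2 could not be ranked there. These intervals, here and below, cover the counting of reads only and not the difference between cultures. Of all genes that passed, 1.94% had as high a log2 ratio as CCT3 in si-RBCK1 #1 and 6.43% in si-RBCK1 #2.

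CCT2, the beta subunit (chr12:69979208-69995357, plus strand), has also been described as a receptor that brings protein aggregates to autophagy. Its level was 111 RPKM in si-Control, 185 RPKM in si-RBCK1 #1 and 159 RPKM in si-RBCK1 #2, with log2 ratios of 0.74 and 0.51. The intervals on reads were 0.70 to 0.78 and 0.48 to 0.56, so the value in si-RBCK1 #2 lay under the 1.5-fold limit of the counts above by more than counting error. CCT6A, the zeta subunit (chr7:56119378-56131682, plus strand), has a relative, CCT6B, known from testis. It was at 118 RPKM in si-Control, 189.6 RPKM in si-RBCK1 #1 and 194.7 RPKM in si-RBCK1 #2, with log2 ratios of 0.68 and 0.72. CCT6A was the only subunit with its highest level in si-RBCK1 #2 by more than counting error. TCP1, the alpha subunit (chr6:160199530-160210735, minus strand), was the founding gene of the family, named for the mouse t-complex. Its level was 91.5 RPKM in si-Control, 141 RPKM in si-RBCK1 #1 and 126 RPKM in si-RBCK1 #2, with log2 ratios of 0.62 and 0.46.

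CCT5, the epsilon subunit (chr5:10250033-10266524, plus strand), can form rings of its own kind when made alone. It stood at 101 RPKM in si-Control, 139 RPKM in si-RBCK1 #1 and 118 RPKM in si-RBCK1 #2, with log2 ratios of 0.45 and 0.22. CCT8, the theta subunit (chr21:30428643-30446118, minus strand), had 82.5 RPKM in si-Control, 103 RPKM in si-RBCK1 #1 and 105 RPKM in si-RBCK1 #2, with log2 ratios of 0.32 and 0.34. The si-RBCK1 libraries were nearly level for CCT8, and both were above si-Control by more than counting error. CCT4, the delta subunit (chr2:62095262-62115806, minus strand), was at 133 RPKM in si-Control and 168 RPKM in si-RBCK1 #1, a log2 ratio of 0.34. In si-RBCK1 #2 it was at 140.5 RPKM, a log2 ratio of 0.08 with a counting interval of 0.04 to 0.12 on reads. There, 46.3% of all genes that passed had as high a log2 ratio as CCT4.

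CCT7, the eta subunit (chr2:73461364-73480150, plus strand), differed least from si-Control. It was at 212 RPKM in si-Control, 233 RPKM in si-RBCK1 #1 and 204 RPKM in si-RBCK1 #2, with log2 ratios of 0.14 and -0.06. The counting intervals on reads were 0.09 to 0.18 and -0.10 to -0.01, so the CCT7 value lay above its si-Control level in one library and below it in the other, by small amounts. In si-RBCK1 #1, 40.0% of all genes that passed had as high a log2 ratio as CCT7, and in si-RBCK1 #2 58.9% did.

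Both ends of that range belong to the side of the ring that binds ATP weakly. On this side the 4 log2 ratios ran from 0.14 to 1.12 in si-RBCK1 #1 and from -0.06 to 0.74 in si-RBCK1 #2. On the side that binds ATP strongly they ran from 0.34 to 0.74 and from 0.08 to 0.51. The medians were 0.50 against 0.54 in si-RBCK1 #1 and 0.53 against 0.34 in si-RBCK1 #2, for the weakly and the strongly binding side in that order, so the sides were not ordered alike in the libraries. With si-RBCK1 #2 set directly against si-RBCK1 #1, the log2 ratio of reads was below 0 by more than its counting interval for 6 subunits and above 0 for CCT6A, and the interval spanned 0 for CCT8. CCT3 had the lowest value of this kind, -0.39 with an interval of -0.41 to -0.36, and CCT6A the highest, 0.04 with an interval of 0.01 to 0.07.

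The make-up of the summed CCT mRNA therefore differed between the libraries, although the assembled complex holds each subunit in equal number. RPKM is scaled by gene length, so levels can be set side by side between subunits, as far as the gene lengths the authors divided by, which are not given in the sources used here, hold. CCT3 was 17.0% of the summed CCT RPKM in si-Control, 24.7% in si-RBCK1 #1 and 21.8% in si-RBCK1 #2. CCT7 was 20.7% in si-Control, 15.1% in si-RBCK1 #1 and 15.2% in si-RBCK1 #2. In si-Control the CCT3 level was 0.822 times that of CCT7, and in the si-RBCK1 libraries it was 1.63 and 1.43 times that of CCT7. The share of CCT4 was also lower, at 13.0% in si-Control, 10.9% in si-RBCK1 #1 and 10.5% in si-RBCK1 #2. CCT6A went from 11.5% in si-Control to 12.3% and 14.6%. The share of TCP1 hardly differed, with 8.94%, 9.16% and 9.45% in the same order of libraries.

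From low to high, the subunits in si-Control were CCT8, TCP1, CCT5, CCT2, CCT6A, CCT4, CCT3 and CCT7, and no neighbours in this order had overlapping counting intervals. In both si-RBCK1 libraries the order was CCT8, CCT5, TCP1, CCT4, CCT2, CCT6A, CCT7 and CCT3. In si-RBCK1 #1 the counting intervals of CCT5 and TCP1 overlapped, as did those of CCT2 and CCT6A. CCT8 was thus the lowest subunit in every library. The highest subunit exceeded CCT8 2.57-fold in si-Control, 3.69-fold in si-RBCK1 #1 and 2.78-fold in si-RBCK1 #2. All 8 belonged to the upper part of the transcriptome, since between 1.92% (CCT7) and 6.30% (CCT8) of the protein-coding genes that passed were as high in si-Control.

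The proteins that feed clients to CCT did not share one direction. Of the 6 prefoldin subunits, 3 were higher and 3 lower in either library, and their median log2 ratio was 0.10 in si-RBCK1 #1 and -0.09 in si-RBCK1 #2. PFDN6 was the only prefoldin subunit of the 6 at least 1.5-fold higher with both siRNAs, against 7.47% of genes. It stood at 30.5 RPKM in si-Control, 46.7 RPKM in si-RBCK1 #1 and 48.5 RPKM in si-RBCK1 #2. It was close to the limit and fell short of it with equal total RPKM or a pseudocount of 5 RPKM. PFDN2 had the lowest log2 ratio in si-RBCK1 #1, at -0.66, with 237, 149 and 158 RPKM, and PFDN4 the lowest in si-RBCK1 #2, at -0.72, with 37.4, 34.7 and 22.4 RPKM. The summed prefoldin level was 0.961 and 0.887 times that of si-Control, beside 1.51 and 1.31 times for CCT. Of 4 phosducin-like cofactors, 3 passed the filter on low values. PDCL3, a cofactor that binds CCT, was at 8.97 RPKM in si-Control, 21.4 RPKM in si-RBCK1 #1 and 20.8 RPKM in si-RBCK1 #2, with log2 ratios of 1.17 and 1.13. PDCL had log2 ratios of 0.66 and 0.46, and TXNDC9 had -0.28 and -0.44.

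The main clients, tubulin and actin, were higher with both siRNAs. Of 13 listed genes 12 passed the filter, all 12 were higher in either library, against 51.5% and 53.5% of all genes that passed, and 10 were at least 1.5-fold higher with both siRNAs, against 7.47%. Scaled to equal total RPKM, 8 were past the limit, without ACTB and TUBA1C, and scaled to equal medians 9 were, without TUBA1C. Their median log2 ratio was 1.21 in si-RBCK1 #1 and 1.19 in si-RBCK1 #2, above the 0.54 and 0.40 of the CCT subunits. The largest log2 ratios were those of TUBB3, a beta tubulin best known from neurons, at 3.97 RPKM in si-Control, 27.3 RPKM in si-RBCK1 #1 and 26.6 RPKM in si-RBCK1 #2. TUBB4B was at 140.4 RPKM in si-Control, 439.6 RPKM in si-RBCK1 #1 and 456 RPKM in si-RBCK1 #2. ACTG1 was the most abundant of these mRNAs in every library, at 1518, 2288 and 2242 RPKM. The smallest log2 ratios were those of TUBG1, the gamma tubulin of the centrosome, at 0.52 and 0.28.

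Summed over the 9 alpha and beta tubulins that passed, the level was 722 RPKM in si-Control, 1734 RPKM in si-RBCK1 #1 and 1656 RPKM in si-RBCK1 #2. The 14 other listed clients, among them WD40 proteins and cell cycle regulators, had median log2 ratios of -0.09 and 0.09, close to those of all genes. Of these 14, CCNE1 and STAT3 were at least 1.5-fold higher with both siRNAs, against 7.47% of genes. STAT3 fell short of the limit under either scaling, and both did with a pseudocount of 5 RPKM. CCNE1, which encodes cyclin E1, was at 7.84 RPKM in si-Control, 21.8 RPKM in si-RBCK1 #1 and 13.3 RPKM in si-RBCK1 #2. STAT3, a transcription factor of cytokine signalling, was at 22.8, 39.1 and 35.3 RPKM. The lowest log2 ratio of these clients was that of PLK1 in si-RBCK1 #1, at -0.45, and that of PPP2R2A in si-RBCK1 #2, at -0.56.

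Cytosolic heat shock chaperones were split. Of 9 listed genes, 5 were at least 1.5-fold higher with both siRNAs, against 7.47% of genes, and none was 1.5-fold lower in either library, against 11.6% in si-RBCK1 #1 and 9.32% in si-RBCK1 #2. The largest log2 ratios were those of HSP90AA1 in si-RBCK1 #1, at 1.81, and of HSPA8, the constitutive HSP70, in si-RBCK1 #2, at 1.76. HSPA8 was at 249.5 RPKM in si-Control, 822 RPKM in si-RBCK1 #1 and 846 RPKM in si-RBCK1 #2. HSP90AB1, HSPH1 and DNAJA1 were the other 3, with log2 ratios between 0.77 and 1.04. DNAJB1 had log2 ratios of 0.37 in si-RBCK1 #1 and 0.48 in si-RBCK1 #2, and HSPB1 had -0.03 and 0.49. The HSP70 genes HSPA1A and HSPA1B were not higher. Their log2 ratios were 0.00 and -0.39 in si-RBCK1 #1 and -0.22 and -0.20 in si-RBCK1 #2. HSPA1A and HSPA1B are near-identical copies whose reads may have been split or dropped in counting. HSF1, the heat shock transcription factor, had log2 ratios of 0.14 and 0.36, and HSF2 had -0.52 and -0.44.

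Among 7 relatives of CCT in the chaperonin family, 6 passed the filter, and they did not share one direction. Their median log2 ratio was -0.14 in si-RBCK1 #1 and -0.22 in si-RBCK1 #2. At least 1.5-fold higher with both siRNAs were 2 of them, against 7.47% of genes, and 1.5-fold lower with both was 1, CCT6B, against 6.24%. The higher genes were those of the mitochondrial chaperonin. HSPD1 (HSP60) was at 281 RPKM in si-Control, 539 RPKM in si-RBCK1 #1 and 448 RPKM in si-RBCK1 #2, and its partner HSPE1 (HSP10) was at 35.6, 83.5 and 82.0 RPKM. CCT6B, the relative of CCT6A, was at 2.48 RPKM in si-Control, 0.703 RPKM in si-RBCK1 #1 and 0.638 RPKM in si-RBCK1 #2, opposite to CCT6A. BBS10, a chaperonin-like protein of the cilium base, had log2 ratios of -0.81 and -0.39.

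Reads of near-identical copies could be misplaced, so named pseudogenes and paralogs of the subunits were examined. Of 16, 13 had a mean under 1 RPKM, and none of those reached more than 0.384 RPKM in any library. The other 3 all belong to CCT6A: besides CCT6B, these were the pseudogenes CCT6P1, at 6.18 RPKM in si-Control, 3.43 RPKM in si-RBCK1 #1 and 2.87 RPKM in si-RBCK1 #2, and CCT6P3, at 1.44, 1.34 and 0.772 RPKM. All 3 were lower in the si-RBCK1 libraries while CCT6A was higher. Reads could have been split between CCT6A, at 118 to 194.7 RPKM, and these copies, or dropped in counting. The levels of the copies do not bound such reads, and this was not tested.

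Subunit genes lie close to other genes, and 5 of them have a protein-coding neighbour that starts within 1 kb on the opposite strand. The distance between starts was 12 bp for CCT5 and FAM173B, 52 bp for CCT4 and COMMD1, 109 bp for TCP1 and MRPL18, 110 bp for CCT6A and PSPH, and 952 bp for CCT7 and PRADC1. Of these neighbours, 2 were higher with both siRNAs, 2 were lower with both, and 1 had opposite signs. MRPL18, a mitochondrial ribosomal protein gene, was at 26.3 RPKM in si-Control, 46.8 RPKM in si-RBCK1 #1 and 32.8 RPKM in si-RBCK1 #2, with log2 ratios of 0.81 and 0.31 beside 0.62 and 0.46 for TCP1. PSPH, the last enzyme of serine synthesis, was at 27.8, 21.8 and 25.4 RPKM, with log2 ratios of -0.34 and -0.12 where CCT6A had 0.68 and 0.72. COMMD1 had -0.53 and -0.20 where CCT4 had 0.34 and 0.08. PRADC1 had 0.81 and 0.61 where CCT7 had 0.14 and -0.06. FAM173B had 0.06 and -0.02 where CCT5 had 0.45 and 0.22.

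TCP1 and ACAT2 overlap by 615 bp at their 3′ ends on opposite strands, and ACAT2 was at 14.9 RPKM in si-Control, 21.8 RPKM in si-RBCK1 #1 and 21.9 RPKM in si-RBCK1 #2. The labels name a directional kit, but whether strand was used in counting is not given in the sources used here, so reads of overlapping genes could be shared. In gene span, CCT3 overlaps TSACC by 1102 bp, and CCT4 an antisense gene by 17651 bp. Both of these overlapping genes lay under 1 RPKM in every library. Such values do not bound the reads that CCT3 and CCT4 could have shared or lost, and this was not tested.

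Promoter letters were read for the subunits because most of their mRNAs were higher with either siRNA, although only 2 of 8 were past 1.5-fold with both. The RefSeq promoter table (GRCh38.p14) had entries for 7 subunits, all but CCT6A, in 9 windows of 250 bases before a listed start. Both strands were searched. A compact heat shock element, GAANNTTC or TTCNNGAA, was found in 2 of 9 CCT windows, those of TCP1 and CCT2, against 11.6% of 35116 windows. These stretches of 30 bases hold it, with the element in capitals.
TCP1, chr6:159789815-159789844, minus strand: tcgtttgaggcGAAGGTTCaacctcttccc
CCT2, chr12:69585789-69585818, plus strand: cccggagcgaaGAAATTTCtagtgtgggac
The element of TCP1 begins 231 bases and that of CCT2 begins 89 bases before a listed start. Neither lies in the longest stretch of its window without annotated exons, which was 62 bases for TCP1 and 27 bases for CCT2. The TCP1 window also holds exons of its neighbour MRPL18. The CCT2 window lies downstream of the window of another listed start of CCT2, which has no such element. CCT3 and CCT6A, the subunits past 1.5-fold with both siRNAs, had no such letters in the window and no window, respectively. The CCAAT box, CCAAT, and the GC box, GGGCGG, were found in 4 and 5 of 9 CCT windows, against 32.0% and 42.6% of all windows, in both cases from CCT2, CCT3, CCT8 and TCP1. The ETS core, CCGGAAG, was found in 1 of 9, of CCT2, against 8.52%, and the E-box, CACGTG, in 0 of 9, against 6.34%. CCT4, CCT5 and CCT7 had none of the 5 motifs, and a window without these letters says nothing of which factors act there.

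Outside the 8 subunits, the 5 protein-coding genes whose pair of log2 ratios lay nearest to the subunits' median pair, among 5541 genes that averaged 10 RPKM or more, were TMEM223, SH3PXD2B, TMED1, IKBIP and NCAPG2. Their log2 ratios lay between 0.52 and 0.54 in si-RBCK1 #1 and between 0.38 and 0.41 in si-RBCK1 #2. Of these 5541 genes, 1036 lay as near to that pair as the subunits' own median distance of 0.289. That is a count of single genes, and how often a set of 8 genes centres on such a pair was not tested.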

How the data were processed

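RNA-seq of 3 Caki-1 libraries, 1 per condition, was analysed. The authors deposited 1 table for the whole series with an RPKM value per gene and library, positions on hg19, and their own comparison columns (group values, log2 fold change, p and q), which were not used. The submitters' processing notes name FastQC, Trimmomatic, TopHat2, HTSeq and hg19, and the labels describe ribosomal RNA removal. The CCT subunits and all gene lists were chosen with earlier results of these data known.

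Log2 ratios are differences of log2(RPKM + 1), with a pseudocount of 1 RPKM, so changes of low genes are understated. The 12403 genes averaging 1 RPKM or more gave the background, and a limit of 1.5-fold stood in for a call, since 1 library per condition allows no test. Read numbers were recovered from the deposited RPKM as the smallest whole numbers that the values allow (tolerance 0.001 reads, lengths up to 50000 nt) and were found for all 63 list genes. Their exact 95% Clopper-Pearson intervals cover counting error only and are the widest the values allow. For CCT7 the length found was 1016 nt, short beside its 2031-nt longest transcript, so its true reads may be more numerous. The steps were tested on simulated data. The scripts ran on Python 3.11.15 with scipy 1.17.1, pandas 2.3.3, numpy 2.4.6 and, for figures, matplotlib 3.10.9.

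Named genes were the 8 subunits, RBCK1, members of the related lists past 1.5-fold with both siRNAs or at either end of a list, genes within 2 kb of a subunit gene, and the 5 genes nearest to the subunits' median pair. PDCL, TXNDC9, BBS10, TUBB4B, ACTG1, HSPA1A, HSPA1B, DNAJB1, HSPB1, HSF1 and HSF2 were named from the lists after their values were seen where they fell outside that rule. Alternatives covered library scaling, pseudocount, filter and fold limit. The siRNA sequences came from the study's supplement, transcripts from GENCODE v29 and promoters from RefSeq. A planned comparison of subunit proteins was not run.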

Additional observations from a re-analysis of the deposited data

How the results depend on the processing

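No subunit changed sign under another scaling (equal medians or equal total RPKM, shifts of at most 0.1 on the log2 scale) or pseudocount (0.1 or 5 RPKM), and the CCT median log2 ratio lay between 0.45 and 0.55 for si-RBCK1 #1 and between 0.34 and 0.41 for si-RBCK1 #2 under all alternatives, leaving out CCT3 included. That omission, and a filter at a mean of 50 RPKM, were chosen after seeing the data. Without CCT3 the summed CCT level was 1.37-fold and 1.23-fold that of si-Control.

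The counts of subunits depended on the fold limit. With a 2-fold limit, 1 subunit was higher in si-RBCK1 #1, 0 in si-RBCK1 #2 and 0 with both. With a looser limit, at least 25% higher, 6 of 8 were higher in si-RBCK1 #1, 5 in si-RBCK1 #2 and 4 with both. The same limits were set for all 12403 genes that passed, with counts in the order si-RBCK1 #1, si-RBCK1 #2 and both. Of these 12403, the looser limit gave 3198, 3212 and 2309 higher and 3020, 2585 and 1937 lower. A 2-fold limit gave 361, 310 and 181 higher and 405, 281 and 175 lower. A pseudocount of 5 RPKM gave 684, 597 and 394 higher and 590, 475 and 341 lower. Fewer genes are tested under a filter: a mean of at least 5 RPKM left 795, 690 and 466 lower, and a mean of at least 50 RPKM left 181, 138 and 111 higher and 108, 112 and 84 lower. The median of the other chaperonin-family genes turned positive, to 0.94 and 0.67, with a mean of at least 5 RPKM, which left fewer genes in the list. That of the heat shock factors in si-RBCK1 #2 became 0.012 with a pseudocount of 5 RPKM. With it, HSF1 went from 0.356 to 0.335 and HSF2, the lower of the pair in RPKM, from -0.436 to -0.311.

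No paired analysis was possible because there was 1 library in each condition. The counting intervals are narrow at this depth, but they hold no culture-to-culture spread, so how far these differences would recur is not known.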
